A study of Mus musculus with 4 samples.

Results

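The genes described here encode the 2 mTOR complexes and the proteins that restrain them: Mtor, Rictor, Rptor, Mapkap1, Mlst8, Tsc1, Tsc2, Rheb, Deptor and Akt1s1. They were chosen by name, and all 10 of the 10 symbols were found among the 40481 genes of a count table of mouse type 1 innate lymphoid cells (ILC1s). ILC1s are tissue-resident relatives of natural killer cells, here selected by the integrin CD49a per the series' design text. Both groups carried floxed Inpp4b alleles (Inpp4b flox/flox). The control group (n = 2, libraries 1 and 2) had no further allele in its label, and the group labelled knockout (n = 2, libraries 3 and 4) also carried Ncr1-iCre, a Cre recombinase transgene driven by the gene of the receptor NKp46. The sources used here give no age, and only control library 1 has a tissue in its label, which is liver. The presence of iCre and the loss of Inpp4b cannot be told apart in this design. The labels do not say whether each library is a separate animal, and p-values here measure the spread between these samples only, and that spread may be technical. The series title ties Inpp4b to ILC1 survival through AKT, which mTORC2 phosphorylates, and the comparison asks how transcripts of the mTOR complexes differ with the genotype.

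The kinase mTOR works in 2 assemblies that share the subunit mLST8. In mTORC1 the scaffold Raptor (Rptor) recruits substrates of protein synthesis and growth, and PRAS40 (Akt1s1) holds the complex back. In mTORC2 the scaffold Rictor and the subunit SIN1 (Mapkap1) direct the kinase to AKT, which that complex phosphorylates. DEPTOR binds and inhibits both. The GTPase Rheb switches mTORC1 on at the lysosome, and the TSC1 and TSC2 proteins form the complex that switches Rheb off, until AKT phosphorylates TSC2. INPP4B, the phosphatase targeted in this series, removes a phosphate from the lipid PI(3,4)P2, which helps to recruit AKT to membranes.

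Total counts ranged from 42380840 to 54878210 per library, and each of the 10 genes had at least 73 counts in every library. Inpp4b itself was at 78.7 and 106.5 CPM in the controls and 142.5 and 86.0 CPM in the knockout-labelled libraries (log2 fold change 0.30, SE 0.28, edgeR adjusted p = 0.828, and -0.13 without knockout library 3). CPM here is the count relative to the TMM-scaled library total. The table sums the whole gene, so this value does not check the deletion of single exons, and each direction given refers to the labels. All 12 ILC1 markers were detected in all libraries, and their summed level was 13277 and 14211 CPM in controls against 14891 and 16454 CPM. Summed myeloid markers had 1032 and 1175 CPM in controls against 3061 and 3667 CPM. Of those, 6 of 16 tested markers were called higher at an edgeR adjusted p under 0.05 (0.141% of all tested genes were called higher and 0.0135% lower). S100a9, a neutrophil gene, had 0 counts in control library 2 and in both knockout-labelled libraries. Summed T cell markers were at 2429 and 2400 CPM against 2927 and 3979 CPM, with 1 of 10 tested markers called (Trac) and Cd5 at 0 counts in control library 1 and knockout library 3. Fcgr1 was at 0 in control library 2, Flt3 in knockout library 3 and S100a8 in knockout library 4. edgeR called 0 markers in the lists of natural killer cells (225.6 and 167.9 CPM summed in controls, 228.0 and 235.0 in the others), Kupffer cells (28.9 and 20.5, then 54.6 and 52.8), B cells (715.7 and 1046, then 649.0 and 804.0), hepatocytes (244.8 and 137.3, then 227.8 and 246.1), endothelial and stellate cells (58.0 and 81.9, then 66.2 and 70.5) and erythroid cells and platelets (367.5 and 263.3, then 228.1 and 794.9). With an unadjusted p under 0.05, 12 of 16 myeloid and 6 of 10 T cell markers were higher and none lower. Of the 12 ILC1 markers 2 were higher and 1 lower. Over all tested genes 4.48% were higher and 5.17% lower at that p. DESeq2 called 10 myeloid, 4 T cell, 2 ILC1, 1 natural killer, 1 Kupffer cell and 1 erythroid or platelet marker higher. It called 1 ILC1 marker and 1 erythroid or platelet marker lower, beside 3.21% of all genes with an adjusted p in either direction. The median log2 fold change was 2.44 for myeloid, 1.58 for T cell, 1.12 for natural killer and -0.003 for ILC1 markers. For the Kupffer, B cell, hepatocyte, endothelial and stellate, and erythroid and platelet lists it was 0.79, 0.05, 0.24, 0.70 and 0.68. In the 6 lists with no edgeR call the higher markers at that p numbered 2, 3, 0, 1, 0 and 1 in that order, and the lower ones 0 except for 1 in the last list. Myeloid and T cells use mTOR too, and the part of these cells in the values below was not tested. In such bulk libraries fewer cells of a type and less RNA per cell cannot be told apart.

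The 2 scaffold genes that set the complexes apart have promoters that lie on either side of the median base composition, and they are shown with those of Mapkap1 and Rheb, which hold motifs of factors tied to this pathway. RefSeq sequences of build GRCm38.p6 were found for 9 of the 10 genes, all but Deptor. Each run below is the 250 bases before the RefSeq gene start, 5′ to 3′ on the gene's strand, with matches to the searched motifs in capitals. Rictor lies on the plus strand at chr15:6708131-6708380, Rptor on the plus strand at chr11:119602655-119602904, Mapkap1 on the plus strand at chr2:34406521-34406770 (the first of its 2 RefSeq starts), and Rheb on the minus strand at chr5:24842362-24842611.
Rictor: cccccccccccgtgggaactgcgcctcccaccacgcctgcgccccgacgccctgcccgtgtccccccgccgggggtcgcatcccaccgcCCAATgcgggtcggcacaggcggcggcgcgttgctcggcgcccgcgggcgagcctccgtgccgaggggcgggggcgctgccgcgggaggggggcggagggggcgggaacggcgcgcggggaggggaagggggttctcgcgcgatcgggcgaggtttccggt
Rptor: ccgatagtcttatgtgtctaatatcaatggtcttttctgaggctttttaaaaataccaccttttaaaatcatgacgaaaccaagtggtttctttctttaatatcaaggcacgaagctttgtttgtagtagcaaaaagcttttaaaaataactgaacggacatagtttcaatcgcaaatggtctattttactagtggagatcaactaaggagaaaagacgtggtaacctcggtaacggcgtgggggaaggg
Mapkap1: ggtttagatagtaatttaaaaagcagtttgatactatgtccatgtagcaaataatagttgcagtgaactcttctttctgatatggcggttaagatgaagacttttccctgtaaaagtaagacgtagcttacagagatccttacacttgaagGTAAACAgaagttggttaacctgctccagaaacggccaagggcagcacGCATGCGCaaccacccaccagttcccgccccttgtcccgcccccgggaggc
Rheb: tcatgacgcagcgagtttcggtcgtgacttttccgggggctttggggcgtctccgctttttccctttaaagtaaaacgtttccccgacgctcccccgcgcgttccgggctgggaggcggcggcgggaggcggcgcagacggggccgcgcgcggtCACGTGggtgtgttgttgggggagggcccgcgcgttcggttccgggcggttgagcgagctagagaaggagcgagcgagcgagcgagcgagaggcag
G and C make up 81.2% of the Rictor window and 37.6% of the Rptor window, against a median of 52.4% over the 32851 windows of that length in the RefSeq table. The capitals in Mapkap1 are a FOXO motif, GTAAACA, that starts 99 bases before the gene start, and an NRF1 motif, GCATGCGC, at 51 bases before it. FOXO factors are excluded from the nucleus by AKT. The capitals in Rheb are the E-box CACGTG, 96 bases before the RefSeq start. This motif is read by MYC and by the lysosomal regulators TFEB and TFE3. GENCODE M21 places the start of Rheb further upstream, at 24842624. The Rheb window with its E-box thus lies wholly inside that gene model. The capitals in Rictor are a CCAAT box. Rptor held none of the motifs searched. These were the E-box, FOXO and NRF1 motifs spelled out above, the CCAAT box, and the ETS motif CCGGAAGT. Both strands were searched. Over all windows the shares with a match were 6.02% for the E-box, 3.17% for the FOXO motif, 2.26% for the NRF1 motif, 2.88% for the ETS motif and 33.85% for CCAAT. The ETS motif was found in the windows of Mtor, Tsc2 and Akt1s1 and of the second Mapkap1 start. The Akt1s1 window (44850122 to 44850371) also lies inside the GENCODE gene, which starts at 44848991. Mtor held 4 CCAAT matches. A match describes letters only.

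No gene of the mTOR core passed the test between the groups. edgeR's quasi-likelihood test with Benjamini-Hochberg adjustment over 14863 genes called 0 of the 10, and 0 had an unadjusted p under 0.05. Over all tested genes edgeR called 0.155%, and 9.65% had an unadjusted p under 0.05 (4.48% higher, 5.17% lower). DESeq2 and limma-voom also called 0 of the 10. The adjusted p-values of edgeR ran from 0.675 for Rptor to 0.99 for Akt1s1, and log2 fold changes from -0.78 for Deptor to 0.38 for Mapkap1. In 7 of the 10 genes the log2 fold change was below 0, as it was in 51.3% of all tested genes. The median was -0.19 for the 10 genes and -0.01 for all tested genes. In 3 of the 10 genes the CPM ranges of the groups did not overlap, Deptor and Rptor with lower and Mapkap1 with higher values in the knockout-labelled libraries. Of all tested genes 40.2% had such ranges (20.8% lower and 19.5% higher), a larger share than 3 in 10. In 6 of the 10 genes the gap between the group means was smaller than the larger of the 2 SDs.

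**Figure D1:**
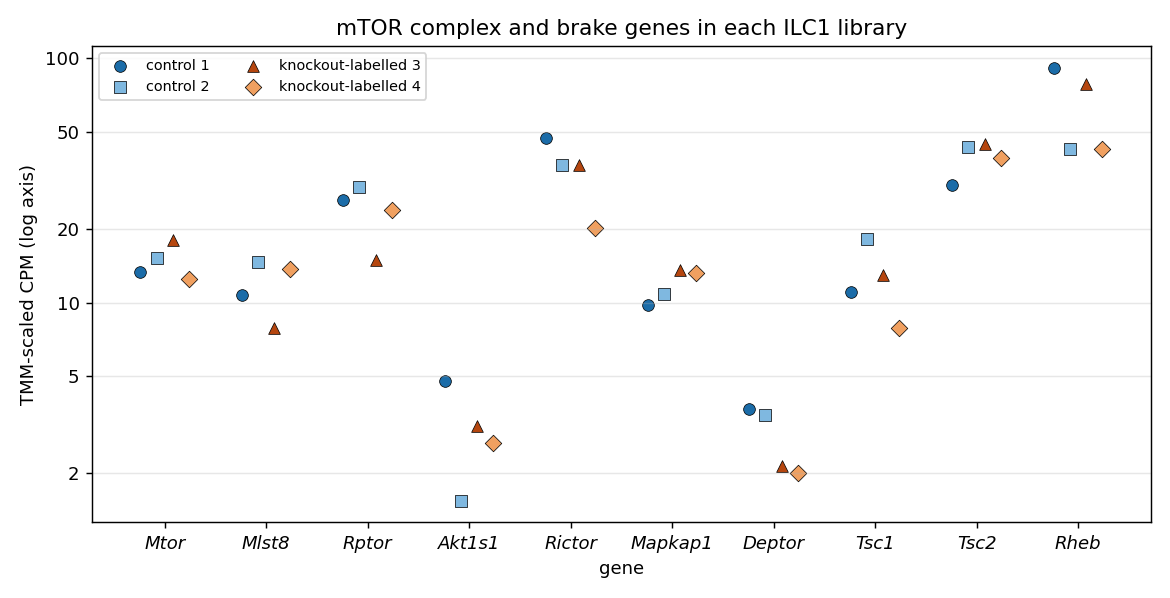
TMM-scaled CPM (vertical log axis) of each of the 10 genes (horizontal axis) in the 4 libraries, 1 point per library, with controls in blue and knockout-labelled libraries in orange. Deptor, Rptor and Mapkap1 are the genes whose groups do not overlap, and Rheb runs from 42.4 to 91.6 CPM with the libraries of each group far apart.

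Neither the kinase gene Mtor nor Mlst8, the gene of the shared subunit, stood apart between the groups. Mtor (ENSMUSG00000028991, mm10 chromosome 4, 148448611 to 148557683), the kinase of both complexes, had 13.3 and 15.2 CPM in controls, with 18.1 and 12.5 CPM in the knockout-labelled libraries. The knockout-labelled libraries thus held both the highest and the lowest value. Its log2 fold change was 0.10 (SE 0.32, 95% interval -0.66 to 0.87, edgeR adjusted p = 0.981) and was -0.21 without knockout library 3. Mlst8 (ENSMUSG00000024142, chromosome 17, 24473551 to 24479078), the subunit that stabilises the kinase domain in both complexes, had 10.7 and 14.6 CPM, with 7.86 and 13.7 CPM in the knockout-labelled pair. Knockout library 3 was the low one, and the groups overlapped. Its log2 fold change of -0.23 (with an SE of 0.39, edgeR adjusted p = 0.944) turned to 0.094 without knockout library 3 and to 0.0086 without control library 2.

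The scaffold genes of both complexes had lower means in the knockout-labelled libraries, with a different library lowest for each. Neither difference passed the test. Rptor (ENSMUSG00000025583, chromosome 11, 119602905 to 119899576), the scaffold of mTORC1, had 26.4 and 29.6 CPM in controls, with 14.9 and 23.98 CPM in the knockout-labelled libraries. Both of the latter lay under both controls, with library 3 far under and library 4 close to them. Means by group (± SD, n = 2) were 28.0 ± 2.3 and 19.4 ± 6.43 CPM, with a log2 fold change of -0.53 (SE 0.31, 95% interval -1.27 to 0.22, edgeR adjusted p = 0.675). Rictor (ENSMUSG00000050310, chromosome 15, 6708379 to 6800401), the scaffold of mTORC2, had 47.3 and 36.45 CPM in controls, with 36.51 and 20.1 CPM in the knockout-labelled libraries. Here library 4 was the low one, and library 3 was level with control library 2. Means by group (± SD, n = 2) were 41.9 ± 7.65 and 28.3 ± 11.6 CPM, with a log2 fold change of -0.57 (SE 0.33, 95% interval -1.37 to 0.24, edgeR adjusted p = 0.677). Without knockout library 3 the log2 fold change was -0.24 for Rptor and -1.08 for Rictor. Without knockout library 4 it was -0.94 for Rptor and -0.23 for Rictor. In these 3-library fits the lowest edgeR adjusted p of the 2 genes was 0.415, and the lone library of its group is assumed to vary like the other group.

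Counts of Rictor and Rptor in the same library give a ratio that does not depend on depth. Rictor had 1.79 and 1.23 counts for each Rptor count in the controls, 2.45 in knockout library 3 and 0.838 in knockout library 4. The knockout-labelled libraries held the extremes, with both controls between them. The mean log2 ratio was 0.57 in controls and 0.52 in the knockout-labelled libraries, a difference of -0.05 (exact two-sided permutation p = 1.0, where 2 against 2 libraries cannot go below 0.333). Per kilobase of exon the ratio was 1.43 and 0.979 in controls and 1.95 and 0.667 in the knockout-labelled libraries. Both scaffolds were also set against Mtor, a comparison chosen after the values were seen. Rictor had 3.56 and 2.40 counts per Mtor count in controls and 2.02 and 1.61 in the knockout-labelled libraries, so the groups did not overlap. Rptor had 1.98 and 1.95 counts per Mtor count in controls, 0.824 in knockout library 3 and 1.92 in knockout library 4. For each of these 2 ratios the exact two-sided permutation p was 0.333, the smallest that the design allows, and the log2 differences were -0.70 and -0.65, the second set by knockout library 3. Deptor had 0.276 and 0.227 counts per Mtor count in controls and 0.118 and 0.161 in the knockout-labelled libraries (log2 difference -0.86, exact two-sided permutation p = 0.333). Mapkap1 per Mtor went the other way without overlap, from 0.733 and 0.713 in controls to 0.749 and 1.06 (log2 difference 0.30, exact two-sided permutation p = 0.333). The groups overlapped for Mlst8 per Mtor (0.808 and 0.961 in controls, 0.435 and 1.10 in the other pair) and for Akt1s1 per Mtor (0.359 and 0.102, then 0.172 and 0.214). In all, 9 within-library ratios were computed, so these p-values pass no threshold after any adjustment.

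**Figure D2:**
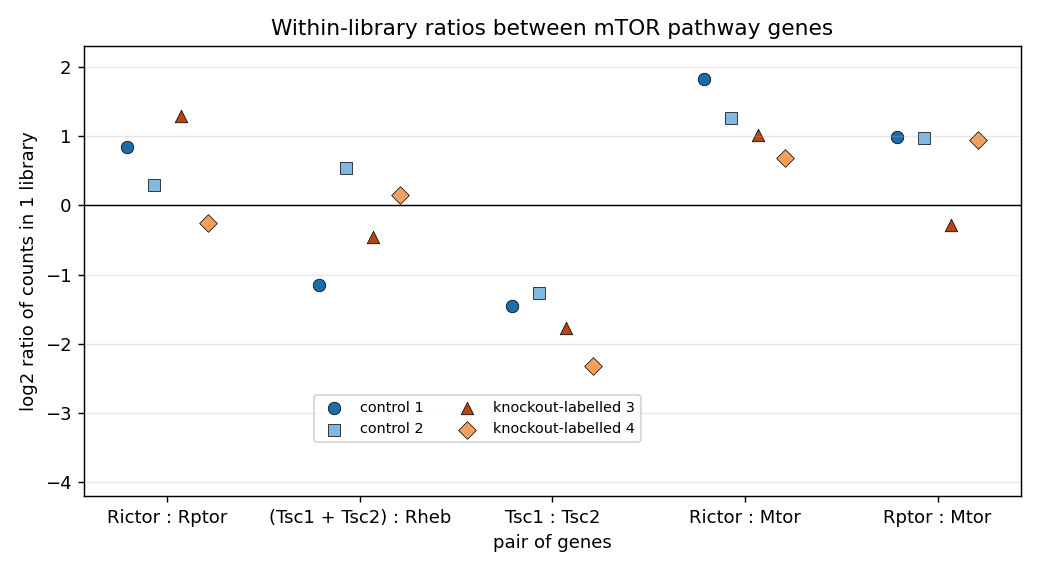
Log2 ratio of counts (vertical axis) between pairs of mTOR pathway genes within each library (points; blue for controls, orange for knockout-labelled libraries). Rictor to Rptor spreads from -0.25 to 1.29 in the knockout-labelled libraries around both controls, while Tsc1 to Tsc2 and Rictor to Mtor lie lower in both knockout-labelled libraries than in either control.

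Mapkap1 was the one gene of the set with higher values in both knockout-labelled libraries. Mapkap1 (ENSMUSG00000038696, chromosome 2, 34406771 to 34624950) encodes SIN1, which helps mTORC2 to find AKT. Its level was 9.74 and 10.8 CPM in controls, with 13.5 and 13.2 CPM in the knockout-labelled libraries. The libraries agreed closely within each group, with means (± SD, n = 2) of 10.3 ± 0.76 and 13.4 ± 0.24 CPM. The log2 fold change of 0.38 (SE 0.30, 95% interval -0.34 to 1.10, edgeR adjusted p = 0.788) did not pass the test. It stayed between 0.30 and 0.46 under all 12 other processing settings. Rictor and Mapkap1, partners in mTORC2, thus had log2 fold changes of opposite sign, a difference that was not tested. Gm13408, a processed pseudogene annotated inside Mapkap1 on the same strand, had 769 to 1334 counts per library in the table, and Mapkap1 had 511 to 683.

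The 2 genes of direct mTOR inhibitors had the fewest counts of the set. Deptor (ENSMUSG00000022419, chromosome 15, 55112317 to 55259271), the inhibitor of both complexes, had 3.67 and 3.45 CPM in controls, with 2.14 and 2.01 CPM in the knockout-labelled libraries. The counts behind these levels were 213 and 163 in controls and 92 and 104 in the knockout-labelled libraries. Exact 95% Poisson intervals, which cover counting error only, ran from 2.94 to 4.20 CPM over both controls and from 1.64 to 2.63 CPM over both knockout-labelled libraries. Means (± SD, n = 2) were 3.56 ± 0.16 and 2.08 ± 0.09 CPM. The libraries of a group differed by 1.06-fold and 1.07-fold, less than in most tested genes, since 83.6% of them had a wider gap between the controls. The log2 fold change of -0.78 (SE 0.53, 95% interval -2.05 to 0.49, edgeR adjusted p = 0.733) was the lowest of the 10 genes and did not pass the test, and it lay between -0.85 and -0.73 under all 12 other processing settings. The SE comes from a fit that takes the spread of a gene partly from other genes of like level.

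Akt1s1 varied most between libraries. Akt1s1 (ENSMUSG00000011096, chromosome 7, 44848991 to 44855421) encodes PRAS40, which occupies Raptor until AKT and mTORC1 phosphorylate it. It had 4.78 and 1.55 CPM in controls, with 3.12 and 2.67 CPM in the knockout-labelled libraries. The controls held the highest and the lowest value and differed by 3.09-fold, a gap that 7.69% of tested genes reached or passed. Control library 2 had 73 counts, with a 95% Poisson interval of 1.21 to 1.94 CPM, so counting error does not span that gap. Tbc1d17, which overlaps one end of Akt1s1 on the opposite strand, had 2527 to 4840 counts per library. The log2 fold change of -0.13 (SE 0.67, 95% interval -1.76 to 1.5, edgeR adjusted p = 0.99) turned to 0.90 without control library 1, to 0.027 with limma-voom and to 0.079 with a replicate block.

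**Figure D3:**
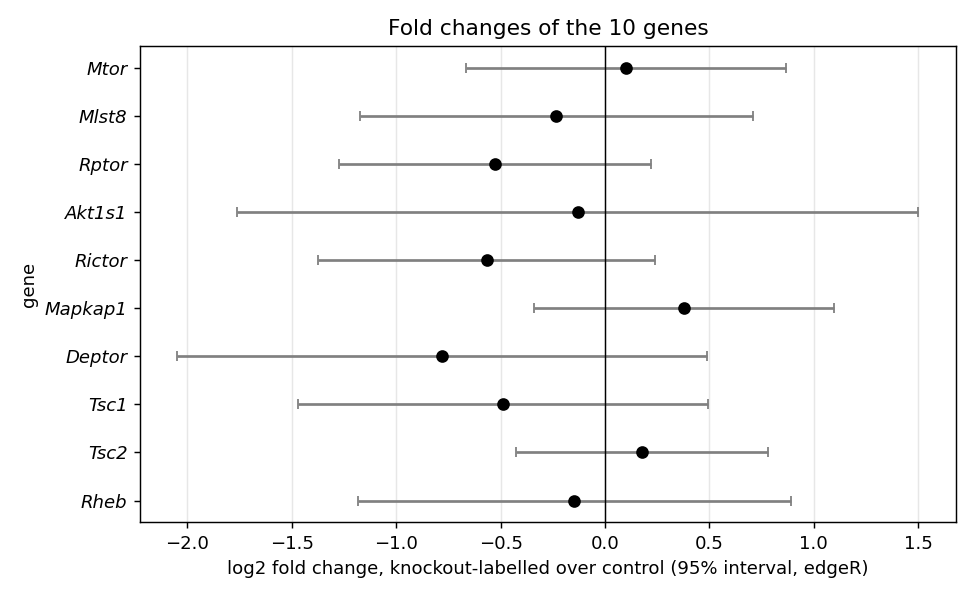
Log2 fold change of the knockout-labelled libraries over control (horizontal axis) for each of the 10 genes, with points for edgeR estimates and bars for 95% intervals. Every interval includes 0, from the narrow one of Tsc2 (-0.43 to 0.78) to the wide one of Akt1s1 (-1.76 to 1.5).

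Of the brake on Rheb, Tsc1 had the lower mean and Tsc2 the higher in the knockout-labelled libraries, within overlapping ranges. Tsc1 (ENSMUSG00000026812, chromosome 2, 28641228 to 28691167) encodes hamartin, which stabilises TSC2, and had 11.1 and 18.1 CPM in controls, with 13.0 and 7.85 CPM in the knockout-labelled libraries. Control library 2 was the high one and knockout library 4 the low one (log2 fold change -0.49, SE 0.41, edgeR adjusted p = 0.804). That value was -0.084 without control library 2, -0.19 without knockout library 4, -0.80 without control library 1 and -0.91 without knockout library 3. Tsc2 (ENSMUSG00000002496, chromosome 17, 24595816 to 24632630) encodes tuberin, the GTPase-activating protein for Rheb, and had 30.3 and 43.5 CPM, with 44.5 and 39.0 CPM in the knockout-labelled pair. Only control library 1 stood lower than the rest (log2 fold change 0.18, SE 0.25, edgeR adjusted p = 0.924, and -0.060 without control library 1). Tsc2 overlaps Pkd1 on the opposite strand, and the strand setting of the counting was not given in the sources used here. Pkd1 had 1570 and 2299 counts in controls and 996 and 1071 in the knockout-labelled libraries. In the same library there were 0.365 and 0.417 Tsc1 counts per Tsc2 count in controls and 0.292 and 0.201 in the knockout-labelled libraries. This ratio was chosen after the values were seen. It did not overlap between groups, with a log2 difference of -0.69 (exact two-sided permutation p = 0.333, the smallest possible).

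Rheb had the highest level per length of the 10 genes and split the libraries within each group. Rheb (ENSMUSG00000028945, chromosome 5, 24802823 to 24842624) had 91.6 and 42.4 CPM in controls, with 78.6 and 42.5 CPM in the knockout-labelled libraries. Control library 1 and knockout library 3 were high, and control library 2 and knockout library 4 were level with each other. The controls differed by 2.16-fold, a gap that 14.7% of tested genes reached or passed. The log2 fold change was -0.15 (SE 0.43, 95% interval -1.18 to 0.89, edgeR adjusted p = 0.978), 0.51 without control library 1 and 0.19 without knockout library 4. Summed Tsc1 and Tsc2 counts per Rheb count were 0.452 and 1.46 in controls and 0.731 and 1.10 in the knockout-labelled libraries. The controls spanned both other values, with a log2 difference of 0.15 (exact two-sided permutation p = 1.0). Rictor, Akt1s1 and Deptor were, like Rheb, higher in control library 1 than in 2 and in knockout library 3 than in 4. That makes 4 of the 10 genes, where 4 were higher in control library 1 and 8 in knockout library 3. The share over all tested genes was not computed.

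Per length, Rheb and Tsc2 led and Deptor came last in both groups. Divided by the kilobases of exon in GENCODE M21, the mean level in controls was 8.68 ± 4.51 CPM per kilobase for Rheb and 3.84 ± 0.97 for Tsc2 (SD, n = 2). Mlst8 (2.86 ± 0.61), Mapkap1 (2.53 ± 0.19), Rictor (2.47 ± 0.45) and Rptor (2.08 ± 0.17) came next, followed by Mtor (1.41 ± 0.13), Tsc1 (1.23 ± 0.42), Akt1s1 (1.03 ± 0.74) and Deptor (0.40 ± 0.02). Ranges of neighbours overlapped from Tsc2 down to Rptor and from Mtor down to Akt1s1, so the order within those runs is not resolved. The kinase gene was thus lower per length than both scaffold genes in controls. In the knockout-labelled libraries Rheb (7.84 ± 3.31), Tsc2 (4.34 ± 0.40) and Mapkap1 (3.29 ± 0.06) led, and Mlst8 (2.43 ± 0.93), Rictor (1.67 ± 0.69), Mtor (1.51 ± 0.39) and Rptor (1.44 ± 0.48) overlapped as neighbours. Deptor was last at 0.23 ± 0.01. Over all 4 libraries Rheb lay at percentile 68.3 of tested genes per length, Mtor at 36.3 and Deptor at 14.3. Summed over the 10 genes the level was 248.9 and 215.7 CPM in controls, with 232.3 and 177.5 CPM in the knockout-labelled libraries.

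Around this core, 8 lists of other mTOR pathway genes held no edgeR call after the filter on low counts. Of 103 tested genes in these lists none was called by edgeR, while 3 had higher and 4 lower values at an unadjusted p under 0.05. That is 6.80% of them, beside 9.65% of all tested genes. DESeq2 called 1 higher (Ddit4) and 1 lower (Myc), where it called 3.21% of all genes with an adjusted p. Among the pathway genes named below, edgeR without a filter on low counts called Myc (adjusted p = 6.7e-05) and Pdcd4 (adjusted p = 0.0191). That setting called 563 genes in all. The median log2 fold change of the 103 genes was -0.02.

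Additional subunits and assembly factors showed 0 of 9 genes at an unadjusted p under 0.05 in either direction (median -0.04). Telo2 and Tti2 belong to the chaperone complex that builds mTOR and related kinases. Telo2 had 33.5 and 46.7 CPM in controls, with 29.0 and 24.3 CPM in the knockout-labelled libraries (log2 fold change -0.59, edgeR adjusted p = 0.545). Tti2 had 14.5 and 12.9 CPM, with 10.1 and 8.29 CPM in the knockout-labelled pair (-0.57, edgeR adjusted p = 0.635). Both genes had non-overlapping groups. Of the 9 genes 2 were lower and 2 higher without overlap, beside 20.8% and 19.5% of all tested genes. Tti1, in the same list, had 49.1 and 73.8 CPM in controls, with 57.5 and 58.1 CPM in the knockout-labelled pair. Its groups overlapped (log2 fold change -0.09, edgeR adjusted p = 0.974). The value of Telo2 was -0.33 without control library 2. Prr5l, a subunit of mTORC2, had 3.04 and 3.34 CPM, with 5.77 and 3.79 CPM in the knockout-labelled pair (0.58, edgeR adjusted p = 0.80, and 0.23 without knockout library 3).

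The amino acid arm brings mTORC1 to the lysosome. Of 12 tested genes of RAG GTPases, Ragulator and associated proteins 1 had a higher and 0 a lower value with an unadjusted p under 0.05 (median 0.03). Lamtor1, the lysosomal anchor of Ragulator, had 59.5 and 62.1 CPM in controls, with 79.4 and 80.3 CPM in the knockout-labelled libraries (log2 fold change 0.39, SE 0.16, edgeR adjusted p = 0.515). Its libraries agreed within each group and the groups did not overlap. Of the 12 genes 3 were higher and 1 lower without overlap, beside 19.5% and 20.8% of all tested genes. Lamtor2 had 170.7 and 212.1 CPM, with 201.7 and 243.1 CPM in the knockout-labelled pair, which overlap. Fnip2, a partner of folliculin, had 1.93 and 0.30 CPM in controls, then 0.26 CPM in knockout library 3 and 0 counts in knockout library 4. Its log2 fold change of -3.12 was -1.21 without control library 1 and -3.91 without control library 2. The value was -8.89 without knockout library 3 and -2.16 without knockout library 4.

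Of 16 tested GATOR, KICSTOR and amino acid sensor genes 0 had an unadjusted p under 0.05 (median -0.08). Sesn2, a leucine sensor and stress-induced brake, had 3.93 and 3.73 CPM in controls, with 9.17 and 6.16 CPM in the knockout-labelled libraries (log2 fold change 1.0, SE 0.42, edgeR adjusted p = 0.522). Nprl3, part of the GATOR1 brake on the RAG GTPases, had 34.4 and 25.2 CPM, with 16.3 and 21.6 CPM in the knockout-labelled pair (-0.65 with an SE of 0.29, edgeR adjusted p = 0.548). These brakes thus had estimates of opposite sign, and neither passed the test. Wdr24, of the activating GATOR2 complex, had 25.7 and 37.1 CPM, with 33.8 and 51.7 CPM in the knockout-labelled pair (0.45, edgeR adjusted p = 0.737). Its value was 0.082 without knockout library 4, 0.20 without control library 1, 0.70 without knockout library 3 and 0.74 without control library 2. That of Sesn2 was 0.67 without knockout library 3, and that of Nprl3 was -0.41 without control library 1.

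Energy and stress brakes held 11 tested genes, of which 1 had a higher and 1 a lower value with an unadjusted p under 0.05 (median -0.12). Ddit4, which encodes REDD1, a stress-induced protein that acts through TSC2 to lower mTORC1 activity, had 17.7 and 13.4 CPM in controls, with 27.5 and 31.3 CPM in the knockout-labelled libraries. Both of the latter lay above both controls. Its log2 fold change of 0.92 (SE 0.27, 95% interval 0.26 to 1.58) had an edgeR adjusted p of 0.379 and a DESeq2 adjusted p of 0.0438. Of the 11 genes 1 was higher and 3 were lower without overlap, beside 19.5% and 20.8% of all tested genes. Stk11, which encodes LKB1, the kinase that activates AMPK, had 16.2 and 21.8 CPM, with 9.19 and 12.1 CPM in the knockout-labelled pair (-0.84 with an SE of 0.32, edgeR adjusted p = 0.49). Cab39, a partner of LKB1, had 42.9 and 47.1 CPM, with 38.3 and 42.3 CPM in the knockout-labelled pair (-0.16, edgeR adjusted p = 0.906, with -0.086 without control library 2 and -0.26 without knockout library 4).

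Of the 11 genes of PI3K and AKT input 0 had an unadjusted p under 0.05, with 9 of 11 log2 fold changes below 0 (median -0.15). Pdpk1, the kinase PDK1 that works with mTORC2 to switch AKT on, had 49.8 and 47.0 CPM in controls, with 38.0 and 37.0 CPM in the knockout-labelled libraries (log2 fold change -0.37, SE 0.19, edgeR adjusted p = 0.615). Akt2 had 82.9 and 85.3 CPM, with 61.6 and 74.2 CPM in the knockout-labelled pair (-0.31 with an SE of 0.17, edgeR adjusted p = 0.656, then -0.20 without knockout library 3 and -0.48 without knockout library 4). Both are among the 5 of the 11 genes with lower values and no overlap between groups, and 1 more had higher values without overlap, beside 20.8% and 19.5% of all tested genes. The share of all tested genes with a log2 fold change below 0 was 51.3%.

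Downstream of mTORC1, 0 of 16 tested substrates and effectors were higher and 2 were lower at an unadjusted p under 0.05 (median -0.17). Rps6kb1, the S6 kinase gene, had 127.4 and 156.2 CPM in controls, with 106.4 and 105.2 CPM in the knockout-labelled libraries (log2 fold change -0.42, SE 0.16, edgeR adjusted p = 0.492). Pdcd4, a translation inhibitor that S6 kinase marks for degradation, had 1661 and 2239 CPM, with 1237 and 1494 CPM in the knockout-labelled pair (-0.51 with an SE of 0.19, edgeR adjusted p = 0.48). The kinase gene and the gene of its target were both lower in both knockout-labelled libraries, and neither passed the test. Without a filter on low counts the edgeR adjusted p was 0.0191 for Pdcd4 and 0.363 for Rps6kb1. Of the 16 genes 5 were lower and 2 higher without overlap, beside 20.8% and 19.5% of all tested genes. Without control library 2 the values were -0.26 for Rps6kb1 and -0.28 for Pdcd4. Tfe3, a lysosomal transcription factor held in the cytoplasm by mTORC1, had 19.3 and 16.5 CPM, with 11.4 and 11.4 CPM in the knockout-labelled pair (-0.65 with an SE of 0.28, edgeR adjusted p = 0.545).

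The 12 mTORC2 substrate genes, which share members with the input list, had 0 at an unadjusted p under 0.05 and a median of 0.07. Sgk1, a kinase gene whose product mTORC2 activates, had 15.4 and 18.7 CPM in controls, with 23.9 and 25.5 CPM in the knockout-labelled libraries (log2 fold change 0.53, SE 0.26, edgeR adjusted p = 0.586). Sgk3, its endosomal relative, had 5.67 and 7.43 CPM, with 15.2 and 8.44 CPM in the knockout-labelled pair (0.85 with an SE of 0.42, edgeR adjusted p = 0.586). Both SGK genes lay higher in both knockout-labelled libraries, and neither passed the test. Of the 12 genes 4 were higher and 2 lower without overlap, beside 19.5% and 20.8% of all tested genes. The value of Sgk3 was 0.35 without knockout library 3 and 1.19 without knockout library 4.

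Among 19 genes of the transcriptional programme that mTORC1 supports, in glycolysis, sterol and serine synthesis, 1 had a higher and 1 a lower value with an unadjusted p under 0.05 (median 0.09). Myc, a growth factor-driven transcription factor gene, had 154.2 and 193.1 CPM in controls, with 86.2 and 89.8 CPM in the knockout-labelled libraries (log2 fold change -0.98, SE 0.17, edgeR adjusted p = 0.182, DESeq2 adjusted p = 0.00055). Hk2, a hexokinase gene, had 0.60 and 0.68 CPM, with 4.14 and 1.95 CPM in the knockout-labelled pair (2.25 with an SE of 0.74, edgeR adjusted p = 0.415). Both genes had groups that did not overlap, Myc with lower and Hk2 with higher values. Of the 19 genes 3 were lower and 3 higher without overlap, beside 20.8% and 19.5% of all tested genes.

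**Figure D4:**
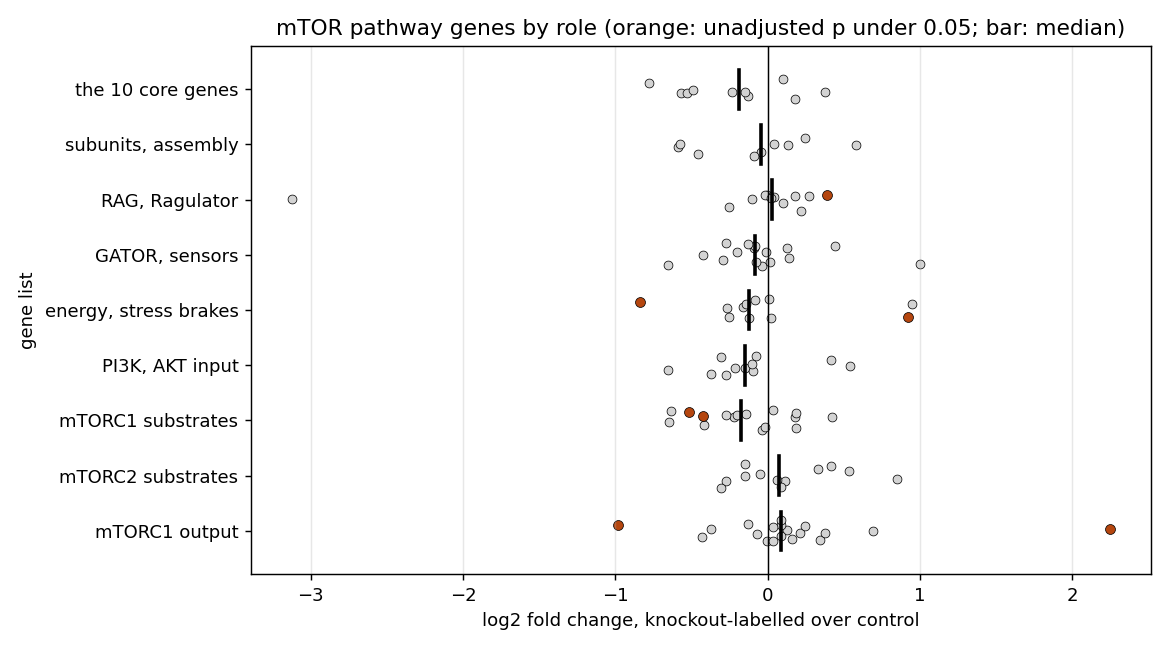
Log2 fold change of the knockout-labelled libraries over control (horizontal axis) for each tested gene of the core set and of the 8 other mTOR pathway lists (rows), with orange points for an unadjusted edgeR p under 0.05 and bars for list medians. Medians run from -0.19 for the 10 core genes to 0.09 for the mTORC1 output list, and 0 of the genes pass the adjusted threshold.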

How the data were processed

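The authors deposited a single table of gene counts covering the 4 libraries. Tools listed in the submitters' processing notes are STAR, bcl2fastq, featureCounts, Subread and DESeq2, with mm10; their roles, the annotation and the strand setting are not given in the sources used here. Libraries were made from total RNA with a SMARTer low-input kit, per the labels' protocols. Of 40757 lines, 276 repeats with identical counts were dropped. Replicates differed beyond sampling noise (chi-square per degree of freedom 98.6 in controls, 89.6 in the knockout-labelled pair).

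Genes passing filterByExpr were scaled with TMM and tested two-sided with edgeR 4.0.16 in R 4.3.3 (robust quasi-likelihood, genotype as the only term, 2 residual degrees of freedom). The threshold was 0.05, adjusted over all 14863 genes. The code was tested on simulated data. Alternatives were DESeq2 1.42.0, limma-voom (limma 3.58.1), other scaling factors and filters, removal of genes of 7 other-cell lists, and each library left out.

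The members and lists were chosen with earlier results of these data known. Named genes were the 10 members, Inpp4b, Ncr1, up to 3 genes of smallest p per pathway list and up to 2 per other-cell list. Other genes are named for overlap with a member, for counts of 0, or, for Tti1, beside Telo2 and Tti2. A few genes named by this rule are left unreported. Ncr1, the gene that drives iCre, had 1672 and 1772 CPM in controls, with 1202 and 1077 CPM in the knockout-labelled libraries. Its log2 fold change was -0.60 (edgeR adjusted p = 0.28, DESeq2 adjusted p = 0.0294). Without a filter on low counts its edgeR adjusted p was 0.0032. Samtor was not found under that symbol. Positions and exon lengths come from GENCODE M21, promoters from RefSeq.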

Additional observations from a re-analysis of the deposited data

How the results depend on the processing

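None of the 10 genes was called under the 12 other settings, of which DESeq2 and limma-voom were 1 each and the rest changed 1 choice in edgeR, or by edgeR with a replicate block, with the lowest adjusted p per setting between 0.412 (no filter on low counts) and 0.86 (without control library 2). The unadjusted edgeR p of Rictor was 0.0331 without a filter on low counts and 0.044 with the replicate block, beside 0.139 with neither change. Rictor, Rptor, Mapkap1, Tsc1 and Deptor kept their sign in all 12. The other 5 genes changed sign 8 times in all. With 1 library left out, log2 fold changes ran from -0.21 to 0.32 for Mtor, -0.71 to 0.094 for Mlst8, -0.060 to 0.46 for Tsc2, -0.69 to 0.51 for Rheb, -0.72 to 0.90 for Akt1s1, -0.91 to -0.084 for Tsc1 and -0.13 to 0.60 for Inpp4b. The signs turned without knockout library 3 (Mtor, Mlst8, Inpp4b), control library 2 (Mlst8, 0.0086), control library 1 (Tsc2, Rheb, Akt1s1) and knockout library 4 (Rheb, 0.19), and for Akt1s1 with limma-voom (0.027). The cause was not tested. The median of the 10 genes ran from -0.26 to -0.13. The Rictor to Rptor difference ran from -0.82 to 0.72 with 1 library left out, and that of Tsc1 and Tsc2 to Rheb from -0.70 to 0.99.

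Over all genes edgeR called 23, but 563 without a filter on low counts, 49 with the stricter filter and 0 without the genes of other cell types, and DESeq2 called 482. With 1 library left out edgeR called from 0 to 18.

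The deposited column names, unlike the labels, number the libraries 1 and 2 in each group. With a replicate block on these numbers, chosen after seeing the data, edgeR called 0 genes (23 without it) and Akt1s1 was at 0.079. The block leaves fewer residual degrees of freedom than the 2 of the fit without it. The replicate differences of the 2 groups correlated at 0.07 across 14863 genes, which are not independent. With 1 difference per group this value cannot decide whether the numbers pair the libraries, and the labels do not say. Deptor and Akt1s1 had the fewest counts, 73 to 277 per library.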
